A study of Mus musculus with 12 samples.

Results

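The 10 genes described here are members of the BCL2 family, chosen by name as rows of the gene table: Bcl2, Bcl2l1, Mcl1, Bcl2l11, Bid, Bbc3, Pmaip1, Bmf, Bax and Bak1. Each had 1 gene ID, so that they were 10 of the 40481 genes listed. RNA was sequenced from hematopoietic stem cells (HSCs), the blood-forming stem cells, of WT (wild-type) mice and of mice with the leukemia fusion ETV6-RUNX1, written iE/R in the series' design text. Fetal liver cells were sorted at E14.5 and bone marrow cells at 8 weeks of age. Every sample, WT included, then spent 3 days in a culture that expands HSCs, with DOX (doxycycline) at 1 µg/mL, so no group shows the effect of culture or drug alone. This gave 4 groups of 3 libraries: WT fetal liver, ETV6-RUNX1 fetal liver, WT bone marrow and ETV6-RUNX1 bone marrow. The labels number the libraries of a group but do not say how many animals each came from, so p-values measure the spread between these libraries.

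BCL2 family proteins decide at the outer mitochondrial membrane whether a cell enters apoptosis. Survival proteins (BCL2, BCL-XL from Bcl2l1, MCL1) hold the pore formers BAX and BAK in check. BH3-only proteins (BIM from Bcl2l11, BID, PUMA from Bbc3, NOXA from Pmaip1, BMF) carry stress or cytokine-withdrawal signals that release or activate the pore formers, after which cytochrome c leaves the mitochondria and activates caspases. Blood stem cells are known to need Mcl1 to survive, and Bcl2l1 is known for keeping erythroid precursors, megakaryocytes and platelets alive.

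The promoter stretches printed next are the 120 bases just before an annotated RefSeq start of the members whose genotype difference in fetal liver, given below, passed the test under every alternative planned. The stretches are written 5′ to 3′ on the gene's strand, on build GRCm38.p6, with the GC box GGGCGG, or CCGCCC where it lies on the other strand, in capitals.
Bcl2l1: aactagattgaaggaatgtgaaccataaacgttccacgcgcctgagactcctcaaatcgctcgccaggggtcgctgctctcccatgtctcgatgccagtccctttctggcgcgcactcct
Mcl1: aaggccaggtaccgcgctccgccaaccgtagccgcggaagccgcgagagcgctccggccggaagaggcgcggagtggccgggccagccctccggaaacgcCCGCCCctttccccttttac
Bbc3: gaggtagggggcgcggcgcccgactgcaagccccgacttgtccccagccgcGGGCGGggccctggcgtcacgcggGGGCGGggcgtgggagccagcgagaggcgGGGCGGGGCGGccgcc
Bax: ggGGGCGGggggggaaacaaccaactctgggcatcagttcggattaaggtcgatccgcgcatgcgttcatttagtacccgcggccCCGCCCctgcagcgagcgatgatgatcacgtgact
These are chr2:152831729-152831848 on the minus strand for Bcl2l1, chr3:95658601-95658720 on the plus strand for Mcl1, chr7:16309463-16309582 on the plus strand for Bbc3 and chr7:45466899-45467018 on the minus strand for Bax. None of the 4 overlaps an exon of the gene annotation, and the Bbc3 stretch lies within the span annotated for that gene (chr7:16308393-16318205). The stretch of Bbc3 held 4 GC boxes, that of Bax 2, that of Mcl1 1 and that of Bcl2l1 0. GC content ran from 55.8% for Bcl2l1 to 83.3% for Bbc3.

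Of the members, 9 had RefSeq windows of 250 bases before to 50 bases after a start, 16 windows in all (some genes have several starts). A GC box on either strand was found in 10 of the 16 windows, against 35.7% of all 32851 windows of the same length. Windows of 1 gene can overlap and then share boxes, as 2 of the 3 Bbc3 windows do. The RUNX motif TGTGGT, searched on both strands, was found in 2 of the 16 windows, 1 of Bmf and 1 of Bak1, against 16.8% of all windows. Neither gene passed the test in any comparison below. The first match of each is shown with its flanks, with the motif in capitals, because RUNX1 is the DNA-binding partner in the fusion.
Bmf: tccagattaaccTGTGGTgagcaggcagct
Bak1: tttgttgttgtcTGTGGTttgcttttcact
They lie at chr2:118547749-118547778 and chr17:27028831-27028860, both on the minus strand and inside the annotated genes. The Bmf window held 2 further matches on the other strand, which share 1 base with each other. No member window held the STAT motif TTCNNNGAA (8.30% of all windows), the interferon-stimulated response element (3.44%) or the p53 response element (0.0731%). A match is a string of letters and not a measured binding site, and a window without one says nothing of the factor elsewhere.

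Library totals ran from 32.3 to 64.5 M reads, and each member had at least 15 reads in every library, above the floor of 3 reads used here as the limit of detection. The gene table has no row for the fusion itself. The level of Etv6 was 103 to 149 CPM (reads scaled to the library's total) in WT and 174 to 185 CPM in ETV6-RUNX1 fetal liver, and 132 to 183 against 193 to 253 CPM in bone marrow. Runx1 stood at 110.4 to 136 against 218 to 244 CPM and at 86.7 to 105 against 143 to 194 CPM. Whether fusion reads are counted in these rows is not given in the sources used here. All 10 HSC markers checked were detected, and their sum was 1672 to 2042 CPM in WT and 3957 to 4060 CPM in ETV6-RUNX1 fetal liver, and 1783 to 2608 against 2902 to 3193 CPM in bone marrow. Of these 10, 7 were called higher with ETV6-RUNX1 in fetal liver and 6 in bone marrow, and 0 lower in either. Of all genes tested, 24.8% and 14.4% were called higher. The sum includes Ly6a, at most 21.4 CPM in WT and 629 to 1107 CPM in ETV6-RUNX1 fetal liver. In bone marrow Ly6a was at most 179 CPM against 282 to 629 CPM. Gata2 had a lower mean with ETV6-RUNX1 in fetal liver, at 89.0 to 127 against 70.8 to 102 CPM. As for other cell types, the 9 lymphoid markers together reached at most 2.07 CPM in any library, with 2 to 3 of them at 0 in all libraries of a group. The summed level of 8 megakaryocyte markers was 3110 to 4613 CPM in WT and 7330 to 8127 CPM in ETV6-RUNX1 fetal liver, and 1375 to 1837 against 477 to 2115 CPM in bone marrow, with 0 of the 8 at 0 throughout a group. Pf4 made up most of the fetal liver sum, at 2037 to 3149 against 4623 to 4995 CPM. In fetal liver 4 of the 8 were called higher and 1 lower, against 24.8% and 18.3% of all genes. The lower one was Gp9, at 268 to 457 against 169 to 262 CPM. In bone marrow 0 were called higher and 1 lower, against 14.4% and 4.93% of all genes. Erythroid markers (8 genes) summed to 729 to 1010 against 1426 to 2208 CPM in fetal liver and 234 to 518 against 420.4 to 633 CPM in bone marrow. Hbb-bt made up most of the fetal liver sum, at 648 to 908 against 1238 to 1961 CPM. Granulocyte and monocyte markers (10 genes) summed to 238 to 313 against 51.7 to 65.9 CPM in fetal liver and 155 to 372 against 104 to 130.3 CPM in bone marrow. Within that list Csf1r went the other way in fetal liver, at 0.385 to 1.41 against 7.13 to 13.6 CPM. Mast cell and basophil markers (8 genes) summed to 7.35 to 12.1 against 3.36 to 5.22 CPM in fetal liver and 26.9 to 45.4 against 7.89 to 15.6 CPM in bone marrow. Stroma and endothelium markers (8 genes) summed to 74.6 to 106 against 147 to 177 CPM in fetal liver and 65.3 to 98.5 against 88.9 to 96.9 CPM in bone marrow. Pecam1 made up most of that fetal liver sum (59.3 to 82.1 against 122 to 155 CPM), and Pdgfrb went the other way (3.33 to 9.02 against 0.0180 to 0.480 CPM). The sum of 10 interferon response genes was 108 to 113 against 4406 to 7625 CPM in fetal liver and 225 to 426 against 930 to 2579 CPM in bone marrow. The sum of 10 proliferation genes was 2789 to 3148 against 1573 to 1983 CPM in fetal liver and 3250 to 3860 against 2138 to 2859 CPM in bone marrow. Summed Y-linked expression (Ddx3y, Eif2s3y, Kdm5d and Uty) was 64.6 to 119 against 198 to 220 CPM in fetal liver and 229 to 288 against 268 to 389 CPM in bone marrow. In bulk RNA, a different share of cells of a type and a different amount of RNA per cell cannot be told apart. The part of these differences in the member results below was not tested, except that Y-linked expression was fitted as a covariate. WT bone marrow replicate 1 stood apart, with the lowest limma array weight of the 12 libraries (0.32). The neutrophil genes S100a8, S100a9 and Ngp were at 49.4, 23.2 and 36.9 CPM there, above the other 11 libraries, the next highest being WT bone marrow replicate 2 at 12.0, 6.15 and 31.0 CPM. Results that turn on WT bone marrow replicate 1 are given with and without it.

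The question put first is whether the fusion goes with altered levels of survival and death genes in fetal liver HSCs. In fetal liver, 5 of the 10 members rose and 1 fell with ETV6-RUNX1, by limma with a Benjamini-Hochberg adjusted p under 0.05. The survival genes Bcl2l1 and Mcl1 rose, as did 3 BH3-only genes (Bcl2l11, Bbc3 and Pmaip1), and the pore former Bax fell. Of all 14271 genes tested, 43.1% passed the same test, 24.8% higher and 18.3% lower, so a count of 6 of 10 stands against a high background. Under quantile normalization the share of higher calls among all called genes was 42.0% in place of 57.6%. The members' median difference was 0.50 on the log2(CPM + 1) scale, against 0.08 over all genes tested.

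**Figure D1:**
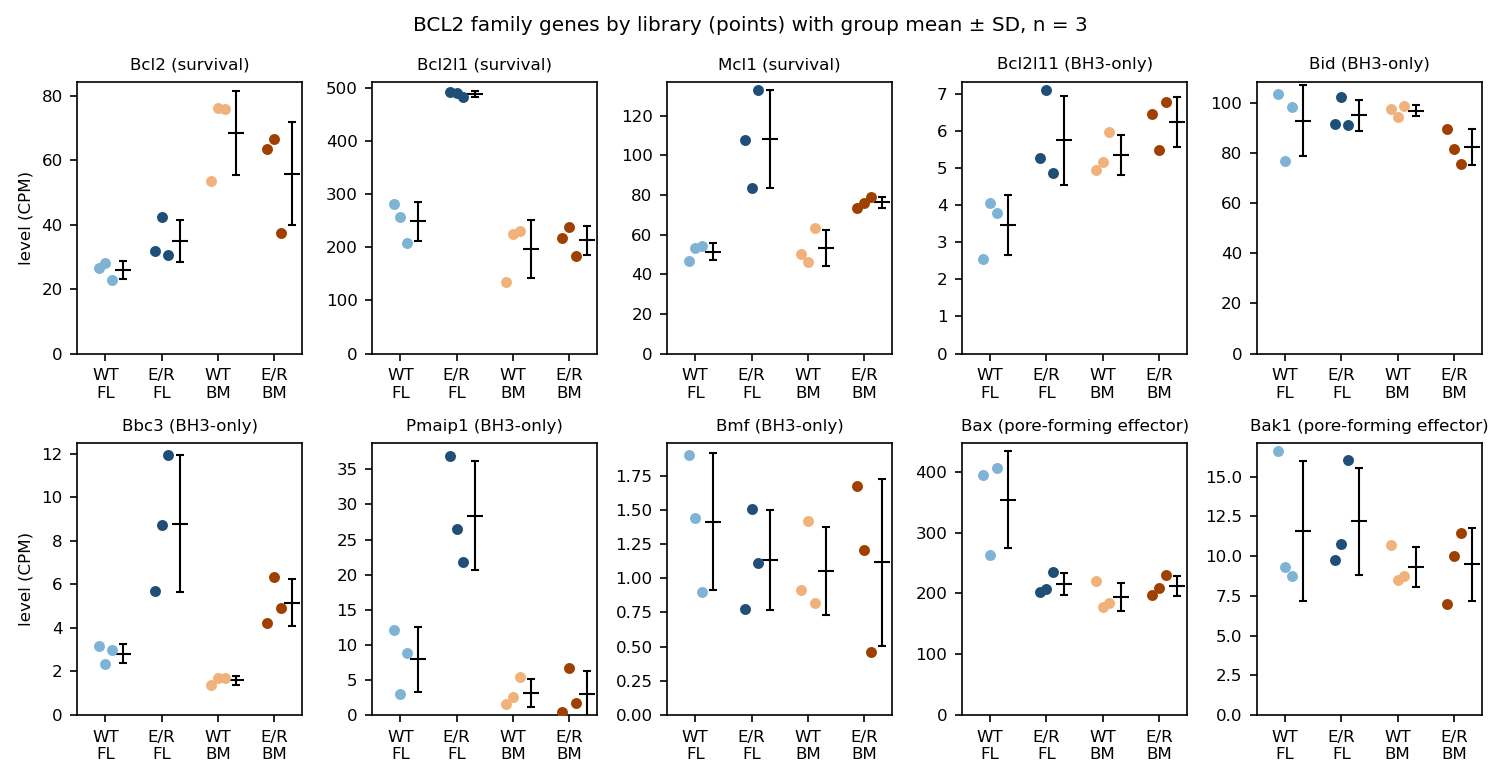
Level of each of the 10 genes (CPM, linear axis from 0) in the 12 libraries, as points, with the group mean and SD as bars (n = 3 libraries). Bcl2l1 in ETV6-RUNX1 fetal liver sits at 483 to 492 CPM, above the other 9 libraries, and Bax in WT fetal liver at 262 to 406 CPM, above the other 9.

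Bcl2l1 (ENSMUSG00000007659, chr2:152780668-152831728) encodes BCL-XL. Its level was 282, 256 and 208 CPM in the WT fetal liver libraries and 492, 491 and 483 CPM in those with ETV6-RUNX1. The groups did not overlap, and the ETV6-RUNX1 libraries were close together (SD 5.14 CPM). The mean rose 1.97-fold, a difference of 0.98 ± 0.19 (log2 scale, limma SE; adjusted p = 0.000893). The order of the group means was ETV6-RUNX1 fetal liver, WT fetal liver, ETV6-RUNX1 bone marrow and WT bone marrow, and only the first step separated groups whose libraries did not overlap.

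Mcl1 (ENSMUSG00000038612, chr3:95658788-95663176) encodes a short-lived survival protein. It measured 46.5, 53.4 and 54.4 CPM in WT and 108, 83.5 and 133 CPM in ETV6-RUNX1 fetal liver, again without overlap. The mean rose 2.10-fold (1.04 ± 0.17; adjusted p = 0.000255). Mcl1 and Bcl2l1 passed the test in all 22 alternatives planned, with differences of 0.88 to 1.21 and 0.86 to 1.08.

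Bcl2 (ENSMUSG00000057329, chr1:106538178-106714274), the founding survival gene, did not pass the test in fetal liver. Its level was 26.7, 28.1 and 22.8 CPM in WT and 31.9, 42.4 and 30.7 CPM in ETV6-RUNX1 libraries. These values do not overlap, but the difference of 0.41 ± 0.22 had an adjusted p of 0.144. An antisense gene, D630008O14Rik, shares exon sequence with Bcl2 and averaged 0.422 CPM, so few of its reads could have entered the Bcl2 row if strand was ignored in counting.

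Among the BH3-only genes, Bbc3 (ENSMUSG00000002083, chr7:16308393-16318205), which encodes the p53 target PUMA, was low in every WT library. It measured 3.16, 2.34 and 2.98 CPM in WT and 5.69, 8.73 and 12.0 CPM in ETV6-RUNX1 fetal liver. The lowest ETV6-RUNX1 library was above the highest WT library. The mean rose 3.11-fold (1.31 ± 0.24; adjusted p = 0.000546), and the call held in all 21 alternatives that tested the gene.

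Pmaip1 (ENSMUSG00000024521) encodes NOXA, which binds MCL1. Its level was 12.1, 2.96 and 8.78 CPM in WT and 36.9, 26.5 and 21.8 CPM in ETV6-RUNX1 fetal liver. The WT libraries spread widely (SD 4.64 CPM), yet none reached the lowest ETV6-RUNX1 value. The mean rose 3.57-fold (1.85 ± 0.54; adjusted p = 0.0133). The call was lost in 5 of 22 alternatives, with an adjusted p of 0.0716 without WT fetal liver replicate 2, 0.0527 without ETV6-RUNX1 fetal liver replicate 1, 0.0550 by edgeR and 0.0848 by DESeq2.

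Bcl2l11 (ENSMUSG00000027381, chr2:128126038-128162547) encodes BIM, the BH3-only protein of cytokine withdrawal. It stood at 2.55, 4.07 and 3.80 CPM in WT and 5.27, 7.11 and 4.86 CPM in ETV6-RUNX1 fetal liver. The groups did not overlap, and the mean rose 1.66-fold (0.60 ± 0.20; adjusted p = 0.0276). This call also failed in 5 of 22 alternatives, among them leaving out WT fetal liver replicate 1 (adjusted p = 0.119) or ETV6-RUNX1 fetal liver replicate 2 (adjusted p = 0.114).

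The remaining BH3-only genes, Bid (ENSMUSG00000004446, chr6:120891930-120916853) and Bmf (ENSMUSG00000040093, chr2:118528757-118549687), did not pass the test. Bid, which links death receptors to mitochondria once caspase-8 cleaves it, ranged from 77.1 to 104 CPM in WT and from 91.5 to 102 CPM in ETV6-RUNX1 fetal liver. Its difference was 0.04, with a 95% interval of -0.24 to 0.33. Bmf, a sensor of detachment, stayed between 0.777 and 1.90 CPM in all 6 libraries, with a difference of -0.17 and an interval of -0.70 to 0.36. The Bid row may hold reads of Bcl2l13, whose exons overlap it on the opposite strand, since the strand setting of the counting is not given in the sources used here.

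Bax (ENSMUSG00000003873, chr7:45461697-45466898), the pore former that moves from cytosol to mitochondria, went the other way. It measured 395, 262 and 406 CPM in WT and 202, 208 and 235 CPM in ETV6-RUNX1 fetal liver. The highest ETV6-RUNX1 library was below the lowest WT library. The mean fell to 0.607 of the WT level (-0.69 ± 0.16; adjusted p = 0.00335), and the call held in all 22 alternatives planned. Bax shares exons with Gm45808, annotated on the same strand. Gm45808 has no row in the gene table, so a split of Bax reads with it cannot be seen there.

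Bak1 (ENSMUSG00000057789, chr17:27019810-27029009), the pore former that sits in the outer membrane, measured 16.6, 9.29 and 8.75 CPM in WT and 9.75, 10.7 and 16.0 CPM in ETV6-RUNX1 fetal liver. These ranges nearly coincide, and the difference was 0.09 (95% interval -0.46 to 0.65). Ggnbp1 overlaps it on the opposite strand. Within each library, the ratio of Bax CPM to Bcl2l1 CPM, which no scaling of the library changes, was 1.4, 1.03 and 1.95 in WT and 0.411, 0.424 and 0.487 in ETV6-RUNX1 fetal liver. Both genes already separated these groups, in opposite directions. The ratio therefore had to separate them too, and it is a description rather than further support. In bone marrow this ratio was 1.65, 0.789 and 0.797 in WT and 0.907, 0.878 and 1.25 with ETV6-RUNX1. The genotypes overlapped there only through WT bone marrow replicate 1 (1.65). Without it every ETV6-RUNX1 bone marrow library lay above the WT ones left, the opposite side to fetal liver. That is a description without a test, and no share over all genes was counted for it. Neither gene passed in bone marrow without that library (limma adjusted p = 0.389 for Bax and 0.657 for Bcl2l1).

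Y-linked expression was higher in every ETV6-RUNX1 than in every WT fetal liver library, so genotype and Y-linked level cannot be told apart within that comparison. With Y-linked expression as a covariate, chosen after seeing the data, 0 of the 10 members passed in fetal liver, the median SE over all genes was 2.03 times larger, and calls over all genes fell from 6151 to 847. Under that covariate the differences of Mcl1 (1.19, adjusted p = 0.0663), Bax (-1.06, adjusted p = 0.0680) and Bcl2l11 (0.93, adjusted p = 0.237) were larger in size than without it. Those of Bbc3 (0.85, adjusted p = 0.374) and Bcl2l1 (0.54, adjusted p = 0.483) were smaller, and that of Pmaip1 turned to -0.35 (adjusted p = 0.900). With a covariate for the reads that fell in processed pseudogenes, also added later, 4 members passed, and Bcl2l11 (0.61, adjusted p = 0.0627) and Pmaip1 (1.26, adjusted p = 0.124) did not.

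**Figure D2:**
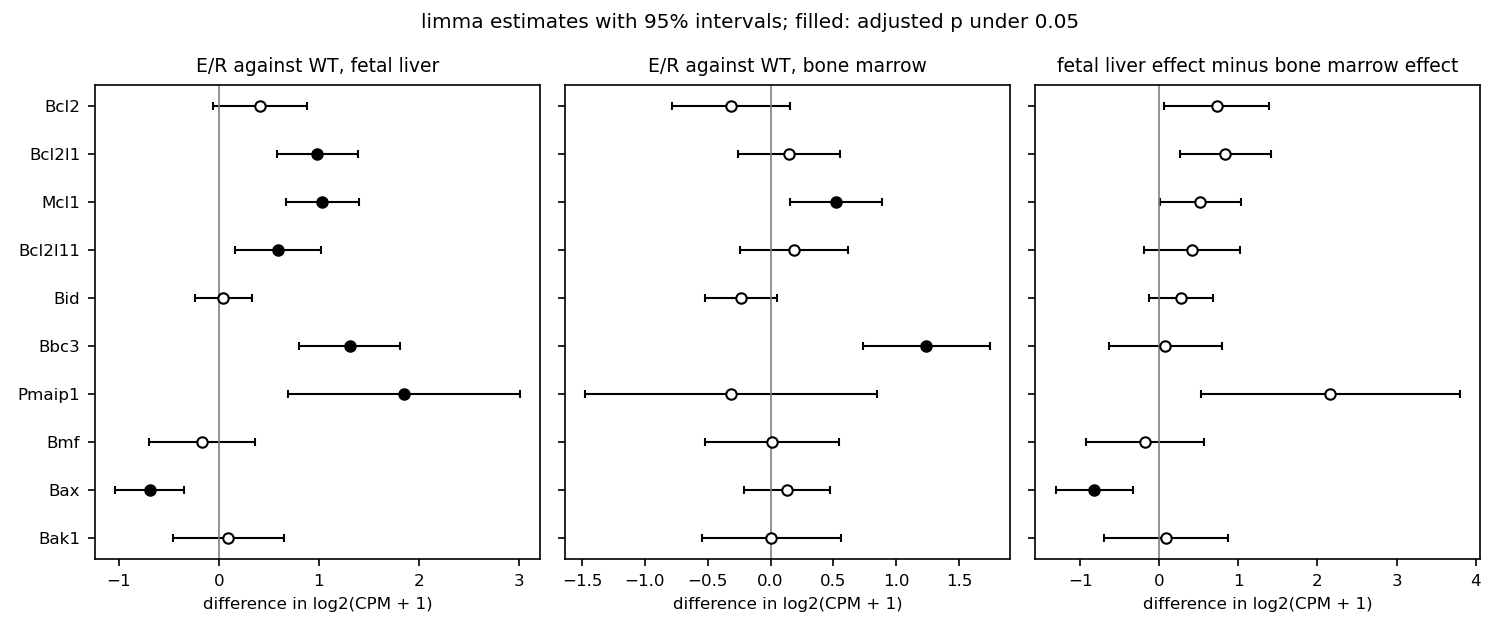
Differences between groups on the log2(CPM + 1) scale for the 10 genes, with 95% intervals from limma and filled points where the adjusted p was under 0.05. The 3 panels have different horizontal scales and show the genotype difference in fetal liver (6 filled), in bone marrow (2 filled) and the fetal liver minus the bone marrow difference (1 filled, Bax).

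In bone marrow, the same genotype comparison called 2 members, both higher: Bbc3 and Mcl1. Over all genes 19.4% were called, 14.4% higher and 4.93% lower, so 2 of 10 is close to the background. The split of all calls depended on scaling, with 74.5% of calls higher in the fit reported here, 50.6% under median-of-ratios scaling and 48.5% under quantile normalization. The members' median difference of 0.07 was below the median of 0.13 over all genes, which itself moved to 0.00 (median-of-ratios) or -0.04 (quantile).

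Bbc3 measured 1.37, 1.69 and 1.69 CPM in WT and 4.21, 6.34 and 4.92 CPM in ETV6-RUNX1 bone marrow. No value overlapped, and the mean rose 3.25-fold (1.24 ± 0.24; adjusted p = 0.0033), a call kept in all 21 alternatives that tested it. It was also kept with Y-linked expression as a covariate (1.09; adjusted p = 0.0217). In both tissues, then, every ETV6-RUNX1 library exceeded every WT library for Bbc3.

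Mcl1 measured 50.5, 46.0 and 63.6 CPM in WT and 73.6, 76.1 and 79.2 CPM in ETV6-RUNX1 bone marrow. The libraries did not overlap, and the mean rose 1.43-fold (0.52 ± 0.17; adjusted p = 0.0447). This call lay at the threshold and passed in 7 of 22 alternatives (adjusted p from 0.0279 to 0.162, and 0.0924 without WT bone marrow replicate 1).

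The other 8 members did not pass in bone marrow. Bcl2l1 measured 134, 225 and 231 CPM in WT and 218, 238 and 184 CPM with ETV6-RUNX1. The lowest value belongs to WT replicate 1, the library that stood apart. The difference was 0.15 (95% interval -0.26 to 0.55), and -0.11 without that library. Bcl2 measured 53.6, 76.3 and 75.9 CPM in WT and 63.6, 66.7 and 37.4 CPM with ETV6-RUNX1 (-0.32; adjusted p = 0.328). Bcl2 values overlapped, with the lowest in an ETV6-RUNX1 library. Without WT replicate 1 they did not overlap, and the difference was -0.48 (limma adjusted p = 0.161). No share over all genes was counted for non-overlap without that library, for Bcl2 or for the genes below.

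Bid was 97.8, 94.7 and 98.8 CPM in WT and 89.9, 81.9 and 75.8 CPM in ETV6-RUNX1 bone marrow. These libraries did not overlap, but the difference of -0.24 had an adjusted p of 0.228. Non-overlap was common. In bone marrow 3 members had groups that did not overlap (2 higher, 1 lower), against 34.5% of all genes tested (23.6% higher, 10.9% lower). In fetal liver 7 members did (6 higher, 1 lower), against 55.6% (32.3% higher, 23.3% lower). An exact permutation test of such a pair gives p = 0.1, the smallest that 3 libraries against 3 allow. Pmaip1 in bone marrow was 1.54, 2.63 and 5.41 CPM in WT and 0.459, 6.71 and 1.73 CPM with ETV6-RUNX1. The latter group holds both the lowest and the highest Pmaip1 value of the tissue, and the 95% interval of the difference ran from -1.47 to 0.85.

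Bcl2l11 was 4.95 to 5.98 CPM in WT and 5.50 to 6.78 CPM in ETV6-RUNX1 bone marrow (0.19; adjusted p = 0.546). Bax was 178 to 220.5 CPM and 198 to 230.0 CPM (0.13; 95% interval -0.22 to 0.48). Bak1 was 8.47 to 10.7 CPM and 6.97 to 11.4 CPM, and Bmf 0.822 to 1.42 CPM and 0.464 to 1.68 CPM. In each of these 4 genes the genotypes overlapped in bone marrow. For Bax the overlap came only from WT replicate 1 (220 CPM, against 178 and 184 CPM in the other WT libraries). Without that library the Bax difference was 0.22 (limma adjusted p = 0.389).

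Whether the genotype effect differed between tissues was tested as the fetal liver minus the bone marrow difference, an interaction for which 9.19% of all genes passed (5.56% higher, 3.62% lower). Of these calls 60.6% were higher, and 74.5% under median-of-ratios scaling. Among the members, Bax passed (-0.82 ± 0.23; adjusted p = 0.0377), which had passed in fetal liver and not in bone marrow. That call held in 9 of 21 alternatives, with adjusted p from 0.00771 to 0.1003 and 0.0163 without WT bone marrow replicate 1. It was lost when any of 9 libraries was left out, which were all but that one, WT fetal liver replicate 2 and ETV6-RUNX1 fetal liver replicate 3. The Bax interaction also failed with no filter on low values (limma adjusted p = 0.0984), under median-of-ratios scaling (limma adjusted p = 0.0842) and by edgeR (adjusted p = 0.08). For Bcl2l1 the interaction was 0.83 ± 0.27 (adjusted p = 0.0645), and it passed in 5 of 21 alternatives. Among them were median-of-ratios scaling (limma adjusted p = 0.0265), edgeR (adjusted p = 0.0360) and DESeq2 (adjusted p = 0.00618). Leaving out WT bone marrow replicate 1 was another (1.09; adjusted p = 0.00303). For Pmaip1 it was 2.16 ± 0.77 (adjusted p = 0.0900), passing without that library (adjusted p = 0.0461) and in 2 other alternatives. The Bcl2 interaction was 0.73 ± 0.31 (adjusted p = 0.151) and that of Mcl1 0.52 ± 0.24 (adjusted p = 0.186). For Bbc3 it was 0.07 with a 95% interval of -0.64 to 0.79.

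The tissues were then compared within a genotype. All fetal liver cells were from E14.5 and all bone marrow cells from 8 weeks of age. Organ and age therefore cannot be told apart, here or in the interaction. In WT cells 2 of 10 members passed, 1 in each direction, against 11.1% of all genes (3.38% higher and 7.77% lower in fetal liver). Of those calls 30.3% were higher in fetal liver, and 41.0% under median-of-ratios scaling or 41.5% under quantile normalization. Bcl2 was lower in WT fetal liver (22.8 to 28.1 CPM) than in WT bone marrow (53.6 to 76.3 CPM), and bone marrow held 2.65 times the fetal liver mean (-1.36 ± 0.22; adjusted p = 0.000933). Bax was higher in WT fetal liver (262 to 406 CPM) than in WT bone marrow (178 to 220.5 CPM), a ratio of 1.83 (0.84 ± 0.16; adjusted p = 0.00329). Both calls held in all 22 alternatives planned, and neither held with Y-linked expression as a covariate, where 0 members passed and the median SE was 2.49 times larger. With that covariate the Bax difference was 1.31 (adjusted p = 0.143) and that of Bcl2 was -0.65 (adjusted p = 0.801). Bbc3 and Bcl2l11 also had WT groups that did not overlap (Bbc3 higher and Bcl2l11 lower in fetal liver), with adjusted p of 0.151 and 0.116. This made 4 members without overlap, 2 in each direction, against 29.5% of all genes (10.6% higher, 18.9% lower).

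Between ETV6-RUNX1 groups, which are the same libraries used in the genotype comparisons, 4 members passed against 28.6% of all genes (10.4% higher, 18.2% lower). The split of all calls depended on scaling: 36.3% were higher in fetal liver in the fit reported here, 47.3% under quantile normalization, 58.7% under median-of-ratios scaling, 57.9% by edgeR and 56.0% by DESeq2. Bcl2l1 was higher in fetal liver, at 483 to 492 against 184 to 238 CPM, a ratio of 2.29 (1.20 ± 0.19; adjusted p = 0.000318). Pmaip1 was higher at 21.8 to 36.9 against 0.459 to 6.71 CPM, a ratio of 9.57 (3.20 ± 0.54; adjusted p = 0.000567). These held in all 22 alternatives planned, while Mcl1 (0.47; adjusted p = 0.0498) and Bcl2 (-0.63; adjusted p = 0.0438) each held in 9. Bcl2 was lost under median-of-ratios scaling, by edgeR and by DESeq2, among others. Bbc3 did not pass in the fit reported here. It passed, higher in fetal liver, under median-of-ratios scaling and quantile normalization (limma adjusted p = 0.0245 and 0.0184), by edgeR (adjusted p = 0.0349) and by DESeq2 (adjusted p = 0.0136). For Bax, the ETV6-RUNX1 groups overlapped (0.02; 95% interval -0.33 to 0.37), unlike the WT groups. The groups did not overlap for 4 members, all higher in fetal liver (Bcl2l1, Mcl1, Pmaip1 and Bid), against 42.2% of all genes (14.4% higher, 27.8% lower).

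To compare levels between genes, CPM was divided by the length of each gene's annotated exons in kilobases. On this scale Bax ranked first of the 10 and Bcl2l1 second in each library. The mean Bax level was 225 CPM per kb in WT and 137 CPM per kb in ETV6-RUNX1 fetal liver, and 123 and 135 CPM per kb in bone marrow. Bcl2l1 averaged 54.2 and 107 CPM per kb in fetal liver, and 42.9 and 46.5 CPM per kb in bone marrow. Bmf was last or next to last in every library, at most 0.362 CPM per kb. With the exons of protein-coding basic transcripts as the length, a choice made after seeing the data, Bcl2l1 had rank 2 or 3.

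**Figure D3:**
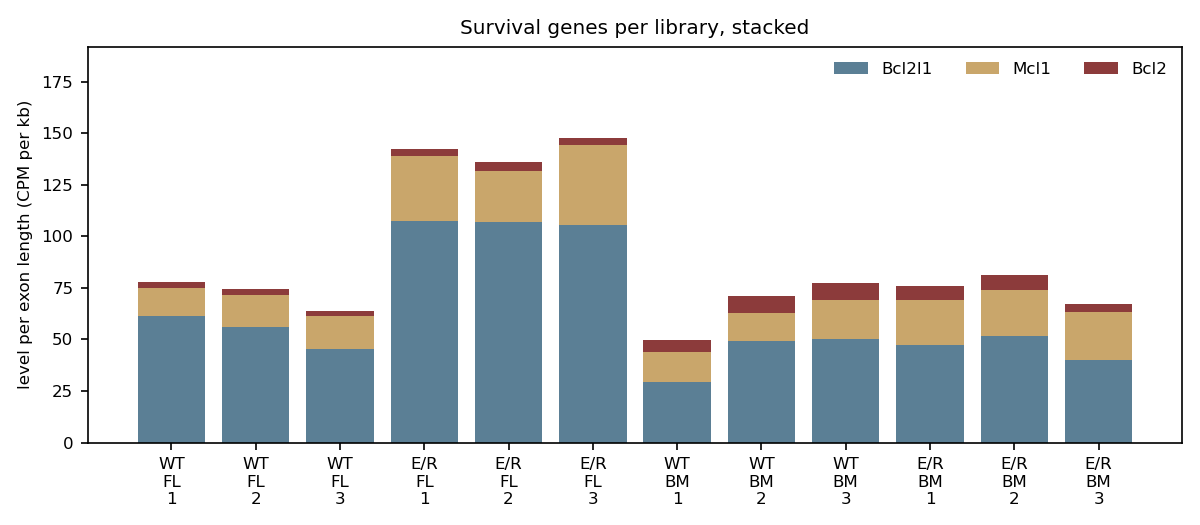
Level per exon length (CPM per kb, linear axis from 0) of Bcl2l1, Mcl1 and Bcl2, stacked, in each of the 12 libraries. Bcl2l1 is the largest segment in every bar, and its level in the 3 ETV6-RUNX1 fetal liver bars is 105 to 107 CPM per kb against 29.2 to 61.4 CPM per kb in the other 9.

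Of the summed level per kb of the 3 survival genes, Bcl2l1 held 71.1 to 78.8% in WT and 71.4 to 78.7% in ETV6-RUNX1 fetal liver. In bone marrow its share was 58.6 to 69.3% in WT and 59.5 to 63.7% with ETV6-RUNX1. The Bcl2 share was 3.74 to 4.12% and 2.27 to 3.40% in fetal liver and 10.7 to 11.8% and 6.06 to 9.14% in bone marrow. In both tissues, then, Bcl2 held a smaller share in each ETV6-RUNX1 library than in any WT library, while the Mcl1 share overlapped between genotypes in both. In bone marrow the Mcl1 overlap came only from WT replicate 1 (29.7%). Without it the Mcl1 share there was 19.0 and 24.1% in WT and 27.4 to 34.4% with ETV6-RUNX1. The Bcl2l1 share in WT bone marrow was then 65.2 and 69.3%, above every ETV6-RUNX1 bone marrow library. These shares are descriptions without a test.

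The rest of the pathway was read from lists of other family members, caspases and their inhibitors, death receptor genes and regulators. Of the 16 other BCL2 family genes, 13 were expressed enough to be tested. In fetal liver 3 rose and 1 fell with ETV6-RUNX1 (43.1% of all genes were called), and in bone marrow 4 rose (14.4% of all genes were called higher). The 3 that rose in both were Bcl2a1a, Bcl2a1b and Bcl2a1d, near-identical copies of the survival gene A1. Their reads cannot be assigned to 1 copy with certainty. All 3 were under 1 CPM in every WT library, so they were tested only because of ETV6-RUNX1 libraries where they are high. Their calls are therefore not separate, and the counts that hold them cannot be weighed against the share over all genes. The summed level of the 3 copies was 0.620 to 0.803 CPM in WT and 16.1 to 46.9 CPM in ETV6-RUNX1 fetal liver. In bone marrow it was 0.324 to 0.724 against 3.24 to 11.2 CPM. The bone marrow call of Bcl2a1b (1.15; adjusted p = 0.0252) was lost without WT replicate 2, WT replicate 3 or ETV6-RUNX1 replicate 3 and held in 17 of 21 alternatives (highest adjusted p 0.0911). The survival gene Bcl2l2 (BCL-W) rose in bone marrow, from a mean of 6.73 to 12.4 CPM (0.78 ± 0.20; adjusted p = 0.0148), and did not pass in fetal liver (0.41; adjusted p = 0.108). Bok, a pore former like Bax, fell in fetal liver from a mean of 8.78 to 2.23 CPM (-1.71 ± 0.31; adjusted p = 0.00061) and its interaction passed (-1.53; adjusted p = 0.0445, in 9 of 21 alternatives). The BH3-only gene Hrk and the survival gene Bcl2l10 had at most 2 reads in any library.

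Downstream of the mitochondria, 16 of 17 apoptosome, caspase and inhibitor genes were tested. In fetal liver 7 rose and 3 fell (43.1% of all genes were called), and in bone marrow 1 rose and 5 fell (14.4% and 4.93% of all genes). Cycs, which encodes cytochrome c, fell in fetal liver from a mean of 292 to 127 CPM (-1.20 ± 0.18; adjusted p = 0.000141). The inhibitors of apoptosis Birc3 (cIAP2) and Xiap rose there, from 24.7 to 81.6 CPM (1.68 ± 0.25; adjusted p = 0.000122) and from 30.5 to 59.4 CPM (0.94 ± 0.16; adjusted p = 0.00036). In bone marrow the effector caspase gene Casp6 (-0.53; adjusted p = 0.00884) and the mitochondrial gene Aifm1 (-0.55; adjusted p = 0.0156) fell.

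The death receptor arm reaches the family through caspase-8 and Bid. Of 10 genes tested of 11, 5 rose in fetal liver and 3 in bone marrow, and 0 fell in either by limma. Over all genes 43.1% and 19.4% were called, 24.8% and 14.4% higher. The median difference was 0.53 in fetal liver and 0.46 in bone marrow, against 0.08 and 0.13 over all genes. Tnfsf10, the gene of the death ligand TRAIL, rose from a mean of 4.98 to 73.6 CPM in fetal liver (3.60 ± 0.26; adjusted p = 1.21e-07) and from 16.6 to 51.5 CPM in bone marrow (1.61 ± 0.26; adjusted p = 0.00128). Casp8 rose in fetal liver from 102 to 290.4 CPM (1.49 ± 0.13; adjusted p = 1.1e-06), and Tnf rose by 1.89 in fetal liver and by 1.05 in bone marrow. The genotype effect was larger in fetal liver than in bone marrow for Tnfsf10 (1.99; adjusted p = 0.00411), Casp8 (1.10; adjusted p = 0.00265) and the caspase-8 inhibitor Cflar (0.73; adjusted p = 0.0417, in 10 of 21 alternatives). Bid itself, the substrate of caspase-8, did not pass in either tissue.

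Of 17 regulators of the members, all were tested. In fetal liver 7 rose and 5 fell, against 43.1% of all genes called, and in bone marrow 4 rose and 3 fell, against 19.4%. Trp53, whose protein p53 switches on Bbc3, Pmaip1 and Bax, fell in fetal liver from a mean of 639 to 390.0 CPM (-0.71 ± 0.11; adjusted p = 0.000166), while the p53 target Mdm2 rose from 67.4 to 134 CPM (0.99 ± 0.24; adjusted p = 0.00469). Ddit3, the stress factor CHOP, rose in fetal liver from 17.2 to 60.3 CPM (1.75 ± 0.21; adjusted p = 1.45e-05) and in bone marrow from 18.1 to 46.4 CPM (1.33 ± 0.21; adjusted p = 0.000925). Foxo3, which can drive Bcl2l11 and Bbc3, rose in bone marrow from 91.7 to 189 CPM (1.07 ± 0.33; adjusted p = 0.0355). Vdac1, a channel of the outer membrane, fell in fetal liver (-0.86 ± 0.13; adjusted p = 0.000136), and Vdac3 fell in bone marrow (-0.46 ± 0.12; adjusted p = 0.0175). Trib2 also rose in fetal liver, but it was under 1 CPM in every WT library and so was tested only because of ETV6-RUNX1 libraries. The fetal liver count that holds Trib2 therefore cannot be weighed against the share over all genes. Foxo1, Foxo3, Stat5b and Usp9x were the others that rose in fetal liver. There the call of Foxo3 (1.15; adjusted p = 0.0117) was lost in 3 of 22 alternatives, and that of Usp9x (0.81; adjusted p = 0.0241) in 5 of 22. Both were lost without WT replicate 3 or ETV6-RUNX1 replicate 2, and Usp9x also without ETV6-RUNX1 replicate 1 (highest adjusted p 0.0615 and 0.123). Several bone marrow calls of these lists rested on single libraries: without ETV6-RUNX1 replicate 2 those of Bcl2l2, Aifm1, Tnf, Vdac3 and Foxo3 were lost, and without WT replicate 2 the first 3 of these (highest adjusted p over the alternatives of these genes 0.126, for Foxo3).

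**Figure D4:**
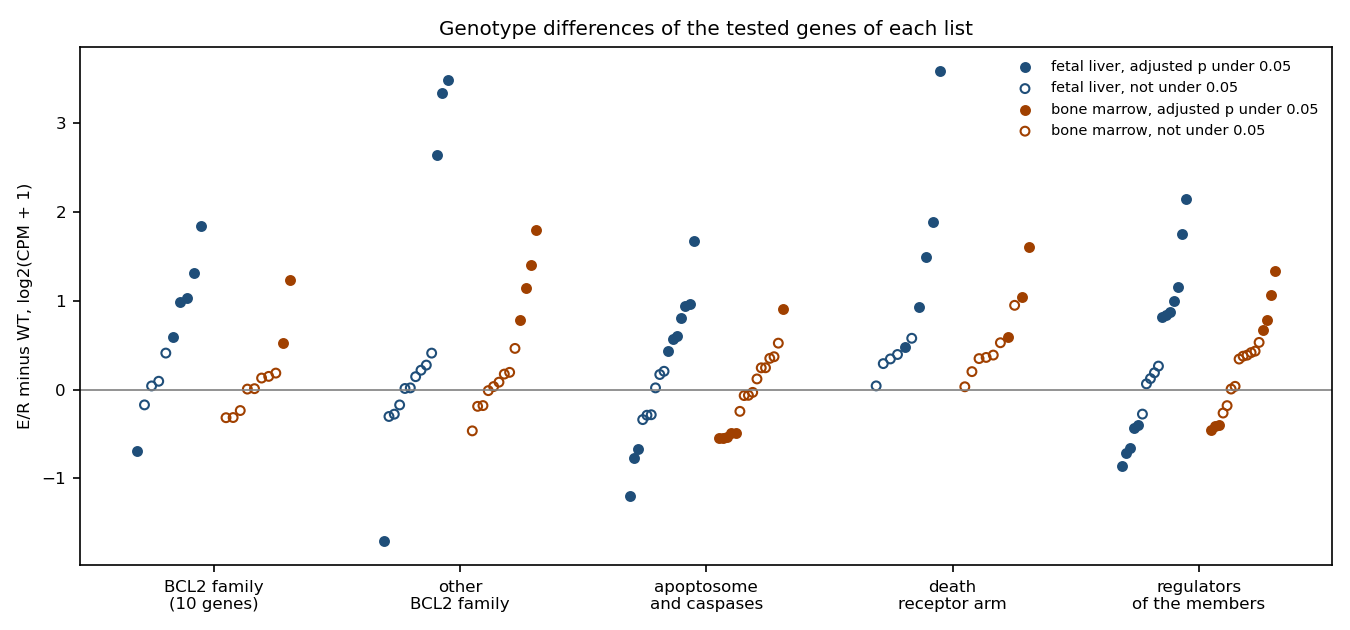
Genotype difference on the log2(CPM + 1) scale for each tested gene of the 10 members and the 4 pathway lists, in fetal liver (blue) and bone marrow (orange), filled where the adjusted p was under 0.05. Among the death receptor genes all called points lie above 0 in both tissues, and among the caspase and inhibitor genes bone marrow has 5 called points below 0 and 1 above.

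For the members whose group means spanned at least 1 on the log2 scale and that passed a test, the genes with the most similar profile over the 12 libraries were found by the root mean square difference of centred log2 values. Bcl2l1 was closest to Lyn and Btbd3, both at 0.13, against a spread of Bcl2l1 about its own mean of 0.57. Mcl1 was closest to Mpp6 (0.12) and Rnf139 (0.13), and Bcl2 to Zadh2 (0.20) and Adgrl2 (0.22). Bbc3 was closest to Ppp1r18 and Rhob, both at 0.23 against its own spread of 0.74. Pmaip1 was closest to Plek and Gp1bb, both at 0.49 against 1.43, a much looser likeness, and Gp1bb is a gene of the platelet surface. The 12 libraries share 4 groups, so such likeness also follows the group means, and it was sought among 9700 genes (9701 for Bbc3).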

How the data were processed

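The members, lists and tests were chosen with earlier results of these data known. Total RNA of 12 libraries (4 groups of 3) was sequenced as read pairs from a stranded low-input kit, per the labels' protocols. The submitters' processing notes name STAR 2.5.1a, featureCounts 1.4.6-p5, Salmon 0.8.2, edgeR, limma and build GRCm38, without their roles. The strand setting is not given in the sources used here. The authors deposited CPM per gene, and 100% of values were whole multiples (within 0.01 read) of 1 read, so reads could be recovered. Of 40757 rows, 276 repeated a gene ID with identical values and were kept once.

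Here log2(CPM + 1) was fitted with limma 3.58.1 (R 4.3.3; eBayes with trend, 4 group means, 8 residual degrees of freedom, two-sided) over 14271 genes (1 CPM or more in 3 or more libraries), with Benjamini-Hochberg adjustment and a threshold of 0.05. The pseudocount understates changes of low genes. The code was tested on simulated data. Alternatives were edgeR 4.0.16 and DESeq2 1.42.0 on recovered reads, other scalings, filters and pseudocounts, array weights, a replicate block, 6 libraries only, and leaving out each library. Named list genes were the up to 3 called genes per list and tissue with the smallest p and a mean of at least 5 CPM, plus those of small counts; Mdm2 and those listed beside their count were named after seeing values. The rule's choice of 1 list gene is not reported here. Positions and exon lengths come from GENCODE M21 (GRCm38), which held 99.4% of gene IDs, and promoter windows from RefSeq (GRCm38.p6). No molecular identifiers are named, so the floor of 3 reads covers counting error only.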

Additional observations from a re-analysis of the deposited data

Results flagged for a closer look

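Bax was singled out because its genotype effect differed between tissues by the interaction test: the fetal liver minus bone marrow difference was -0.82 on the log2(CPM + 1) scale (limma adjusted p = 0.0377). The call was lost with no filter on low values (limma adjusted p = 0.0984), under median-of-ratios scaling (limma adjusted p = 0.0842) and by edgeR (adjusted p = 0.08). Most single libraries left out also lost it. Under median-of-ratios scaling and by edgeR, Bcl2l1 passed instead. The separate differences were -0.69 in fetal liver and 0.13 in bone marrow. Bax was lower in 3 of 3 ETV6-RUNX1 fetal liver libraries than in every WT fetal liver library. Summed Y-linked expression (64.6 to 119 against 198 to 220 CPM) and summed megakaryocyte markers (3110 to 4613 against 7330 to 8127 CPM) also separated these fetal liver groups. Among those markers Gp9 went the other way. The part of the megakaryocyte markers was not tested.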

How the results depend on the processing

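All called member differences kept their direction under the alternatives planned. In fetal liver the 6 member calls became 0 with Y-linked expression as a covariate (all genes 847 in place of 6151), where Pmaip1 (-0.35), Apaf1 (-0.079) and Mdm2 (-0.090) reversed. There the differences of Mcl1 (1.19), Bax (-1.06) and Bcl2l11 (0.93) were larger than without it, and the median SE was 2.03 times larger. In bone marrow the 2 calls became 1 with no filter, median-of-ratios scaling, quantile normalization, edgeR, DESeq2, only 6 libraries (all genes 1601 in place of 2763) and the Y-linked covariate (1445); with a mean of at least 5 CPM it was also 1, Mcl1, since Bbc3 was not tested. The interaction call of 1 member became 0 with no filter (all genes 767 in place of 1311), 4 with array weights (3637), 2 with DESeq2, 0 with the pseudogene covariate (547) and 0 with the Y-linked covariate (355). Under median-of-ratios scaling and by edgeR, Bcl2l1 passed the interaction test in place of Bax. Between WT tissues 2 calls became 0 with the Y-linked covariate (179 in place of 1591 genes; array weights gave 4401 genes). Between ETV6-RUNX1 tissues 4 calls became 2 with no filter, with only 6 libraries and with the Y-linked covariate (2464 in place of 4088 genes), and Huwe1 reversed to -0.45 with the pseudogene covariate. With the pseudogene covariate Pmaip1 was also lost between these tissues (2.21, limma adjusted p = 0.0515). In the bone marrow genotype comparison that covariate lost Mcl1 (0.34, limma adjusted p = 0.167) and gained Bcl2l1 (0.48, limma adjusted p = 0.0407). For the other changes the cause was not tested. Both covariates were chosen after seeing the data.

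Leaving out 1 library at a time gave 5 to 6 member calls in fetal liver, 1 to 2 in bone marrow, 0 to 3 for the interaction, 2 to 2 between WT tissues and 2 to 4 between ETV6-RUNX1 tissues. Over all genes it gave 4654 to 6634, 1493 to 2901, 697 to 2329, 864 to 2785 and 2695 to 4609 calls. Groups reduced to 2 libraries share the spread of the others. With the replicate number as a block, member calls were 6, 2, 1, 2 and 4 and all-gene calls 5838, 2334, 1033, 1425 and 3739. Replicate numbers did not pair the libraries: deviations of 18 same-numbered pairs correlated from -0.442 to 0.39, and 1 of 12 libraries correlated best with its own number. The scaling moved the all-gene median between ETV6-RUNX1 tissues from -0.16 to 0.00 (median-of-ratios). Low members such as Bmf (15 to 88 reads) are the least precise.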
